A study of Caenorhabditis elegans with 12 samples.

Results

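XO gonads and XX gonads came from young adults of the nematode Caenorhabditis elegans, and both make oocytes because the animals carry the temperature-sensitive allele fog-1(q253). The libraries were taken by title: 3 of XO gonads and 3 of XX gonads, 6 of the 12 in the series, the other 6 being whole worms of both karyotypes. All groups were fog-1(q253)ts animals kept on NGM plates at 25 °C. The XO gonad group was fog-1(q253) XO young adults, which have a male body, and the XX gonad group was fog-1(q253) XX young adults, which have a female body. Each gonad sample pooled at least 200 gonads, and polyadenylated RNA was read from libraries that kept strand. The labels do not say that replicates came from separate cultures, so a p-value measures the spread between these samples, which may be technical.

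In C. elegans the number of X chromosomes sets the sex of the body, and a separate set of switches in the germline sets whether germ cells become sperm or oocytes. FOG-1, a cytoplasmic polyadenylation element binding protein, and FOG-3, a Tob family protein, act at the end of that germline pathway to start sperm formation. The adult gonad also holds somatic cells that differ between the sexes: contractile sheath cells, a spermatheca and a uterus in the female, and a seminal vesicle and vas deferens in the male. A dissected gonad is thus a mixture of germ cells and somatic cells, and in such bulk RNA fewer cells of a type cannot be told apart from less RNA per cell.

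The gonad libraries held from 11911364 to 16140259 gene counts. The 6 gonad libraries are called XO1, XO2, XO3, XX1, XX2 and XX3, by karyotype and replicate number. XX1 stood apart. Its counts differed from those of the other XX gonads by a chi-square per degree of freedom of 125 and 172, against 19.7 between those other XX gonads and 10.6 to 22.4 among the XO gonads. It was low in long genes, with a median log2 deviation of -1.2 over 513 autosomal genes above 4 kb of exon and 0.23 over 1982 genes under 1 kb. Counts of the 12 autosomal genes named for the largest rises summed to 2986, 4007 and 5856 in XO gonads, and to 47 in XX1, 9 in XX2 and 6 in XX3. Results are therefore given with all 6 libraries and again without XX1. X-linked genes were mostly lower in XO gonads, with 777 of 955 passing in that direction, and what follows concerns genes on chromosomes I to V.

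The tissue label was checked against marker genes, with levels in counts per 1000000 gene counts (CPM). The 12 germline markers summed to 10543 to 10760 CPM in XO gonads and 10285 to 11536 CPM in XX gonads. The 32 sperm markers, which include the major sperm proteins, summed to 5.48 to 28.4 CPM in XO gonads and 3.17 to 6.32 CPM in XX gonads, and 1 of the 32 had enough counts for a test. Germline markers were thus abundant in every gonad library and sperm markers close to 0. Markers of the female somatic gonad summed to 978 to 1302 CPM in XO gonads and 3454 to 3891 CPM in XX gonads over the 14 autosomal members. Among them perm-4 and perm-2, described below, averaged 1873 and 1102 CPM in XX gonads and 14.4 and 11.4 CPM in XO gonads. The higher XX sum rests on these genes, so it does not describe each member of the list. By gene, 7 of the 14 were tested, and 5, perm-4 and perm-2 among them, were lower in XO gonads and 0 higher. Of the 7, 6 had enough counts in both groups. The 6 autosomal markers of the male gonad and seminal fluid summed to 31.3 to 36.1 CPM in XO gonads and 3.42 to 4.27 CPM in XX gonads, with dmd-3 at 0 in every XX gonad. Most of that XO sum came from mab-3 and her-1, also described below. Autosomal markers of tissues outside the gonad were low. Intestine markers summed to 187 to 268 CPM in XO gonads and 212 to 289 CPM in XX gonads. These similar sums do not describe the single members: of 14 tested, 8 were higher in XO gonads and 1, vit-6, was lower. The yolk gene vit-6, described below, held a larger part of the XX sums than of the XO sums. Cuticle and hypodermis markers summed to 385 to 443 CPM in XO gonads and 192 to 302 CPM in XX gonads. Body muscle markers summed to 155 to 231 CPM in XO gonads and 414 to 525 CPM in XX gonads. Early embryo markers summed to 11 to 12.6 CPM in XO gonads and 22 to 41.6 CPM in XX gonads over 19 autosomal members. Of these, 7 were tested and 5 were lower in XO gonads, against 11.9% lower of all tested autosomal genes. Only 3 of the 7 had enough counts in both groups, and the others could hardly fail to differ. The part of early embryo RNA in the results was not tested. The same autosomal intestine markers summed to 7725 to 8642 CPM in XO whole worms and 48676 to 65026 CPM in XX whole worms. Gonad and whole worm libraries were scaled separately.

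**Figure D1:**
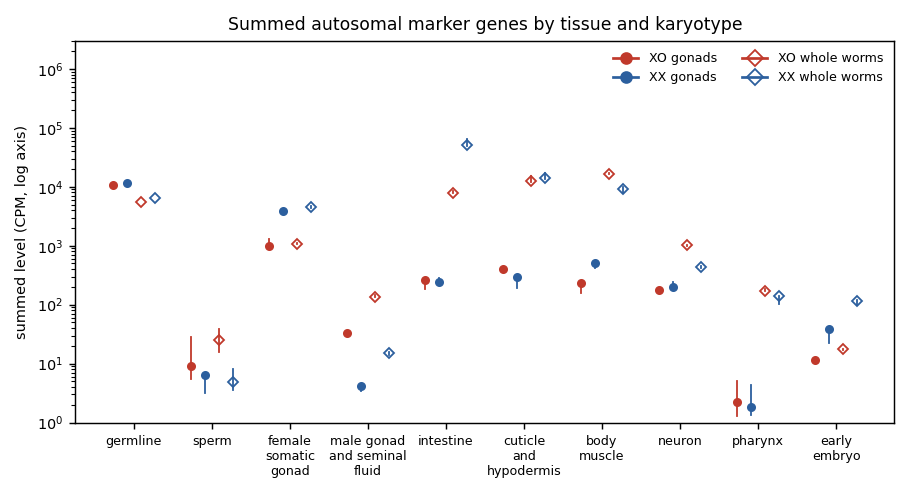
Summed level of autosomal marker genes, in CPM on a log axis, for 10 marker lists. Symbols are medians and lines run from the lowest to the highest of 3 libraries, for XO gonads, XX gonads, XO whole worms and XX whole worms. Germline markers have medians of 10756 CPM in XO gonads and 11449 CPM in XX gonads, and sperm markers have medians of 8.98 CPM in XO gonads and 6.31 CPM in XX gonads.

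Away from the X chromosome, XO gonads had more RNA of fog-1, fog-3 and snpc-1.3, which act in sperm fate and male piRNA expression, and of some secreted and digestive protein genes such as try-13, asp-1 and clec-63. They had less RNA of the eggshell barrier genes perm-4 and perm-2, the sheath innexin gene inx-8, the type IV collagen gene emb-9 and 18 of 41 tested contractile genes. Of 7480 autosomal genes with enough counts to test, out of 17169 rows, 629 (8.41%) passed as higher and 892 (11.9%) as lower in XO gonads by edgeR's quasi-likelihood test, at a Benjamini-Hochberg adjusted p of 0.05. The median log2 fold change of all 7480 was 0.08, with quartiles of -0.22 and 0.43. Changes of at least 2-fold made up 376 of the higher and 589 of the lower genes, and changes of at least 16-fold 86 and 73. Replicate values did not overlap in any of the called genes, a property met by 26.4% (higher) and 21% (lower) of all tested genes. Where lack of overlap is given below for a called gene, it therefore adds no support to the call.

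The number of calls depended on XX1. Without it, 7736 autosomal genes were tested, 1576 (20.4%) were higher and 1226 (15.8%) lower, and 610 of the 629 higher genes and 875 of the 892 lower genes were called again. The 966 higher genes that this fit added had a median absolute log2 fold change of 0.36, and 847 of them changed by less than 2-fold. The 351 lower genes it added had a median of 0.55. Leaving out any other library gave 330 to 479 higher and 590 to 882 lower genes. In all 6 fits with 1 library left out, 256 higher and 528 lower genes kept their call. Genes above 4 kb of exon had a median log2 fold change of 0.46, and of 0.17 without XX1.

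**Figure D2:**
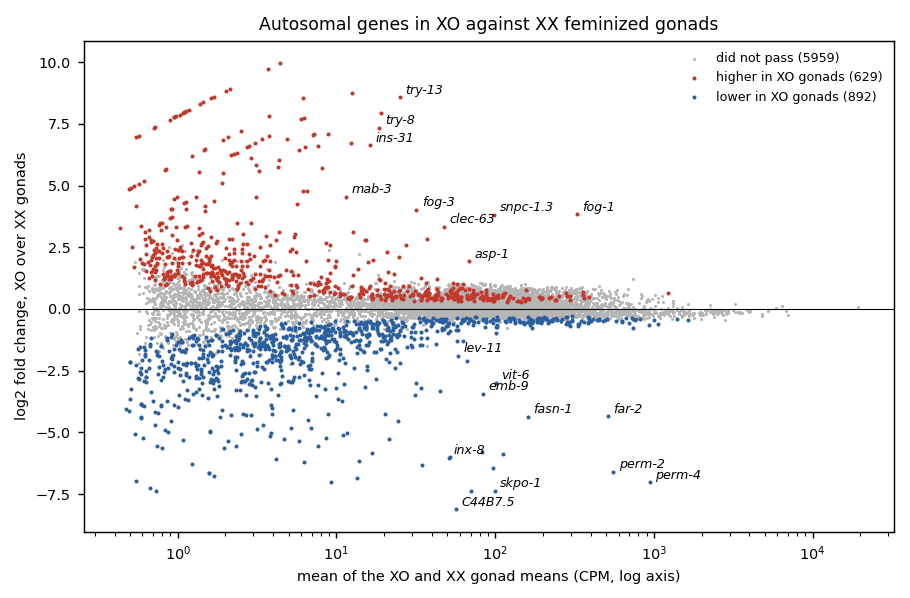
Log2 fold change of XO over XX gonads against the mean level in CPM (log axis) for 7480 autosomal genes, with 629 higher and 892 lower genes coloured. Genes labelled in the plot run from log2 fold changes of 8.58 (try-13) to -8.11 (C44B7.5). Fitted fold changes of genes with few or no counts in a group depend on the prior count, which sets the diagonal rows of points at low levels.

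Called genes lay on every autosome. On chromosome V, 12.1% of 1269 tested genes were higher and 15.4% lower in XO gonads. On chromosome II the shares were 8.87% and 15.2% of 1511 genes, and on chromosome IV 8.46% and 12.9% of 1395. Chromosome I had 6.72% higher and 9.16% lower of 1682 genes, and chromosome III 6.78% and 8.13% of 1623. Genes with only a sequence name made up 48% of the higher genes and 36.4% of the lower genes, against 34.9% of those tested.

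Genes that start sperm fate in the germline were higher in XO gonads, with little spread between libraries. fog-1 had 626, 604 and 607 CPM in XO gonads, against 38.2, 47.6 and 42.6 CPM in XX gonads. The XO libraries lay close together and all exceeded the XX libraries (log2 fold change 3.84, SE 0.12, adjusted p = 2.74e-05, 3.78 without XX1). Both groups carry q253, so the level does not check the allele. fog-3 had 58.8, 60.1 and 61.4 CPM in XO gonads, against 3.50, 4.27 and 3.33 CPM in XX gonads, again without overlap (log2 fold change 4.01, SE 0.14, adjusted p = 2.74e-05, 3.98 without XX1). snpc-1.3, which encodes a factor that activates male-specific piRNA genes, had 189, 174 and 188 CPM in XO gonads, against 11.7, 14.2 and 13.4 CPM in XX gonads. The ranges of the XO and XX libraries were again far apart (log2 fold change 3.81, SE 0.12, adjusted p = 2.74e-05, 3.75 without XX1).

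Other genes of the sex determination pathway also rose. mab-3, which encodes a DM-domain transcription factor that represses yolk genes in males, had 21.5, 20.4 and 24.06 CPM in XO gonads, against 1.14, 0.829 and 0.833 CPM in XX gonads (log2 fold change 4.55, SE 0.19, adjusted p = 3.10e-05). her-1, which encodes the secreted protein that starts male development by blocking the receptor TRA-2, had 7.61, 11.6 and 9.32 CPM in XO gonads, against 1.07, 1.53 and 1.17 CPM in XX gonads (log2 fold change 2.91, SE 0.25, adjusted p = 3.31e-04). Neither overlapped between groups, and without XX1 the log2 fold changes were 4.73 and 2.82. fem-3, a male-promoting gene of both soma and germline, and fbf-1, which encodes a PUF repressor of fem-3 and of meiotic entry, rose by 0.48 and 0.51 on the log2 scale (adjusted p = 0.0283 and 0.0185). The fem-3 call was lost without any 1 of XO1, XO2, XO3 and XX2, and the fbf-1 call without XO1, XO2 or XX3.

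tra-1, which encodes the Gli-type transcription factor at the end of the somatic pathway, had 87.2, 88.8 and 91.3 CPM in XO gonads, against 61.8, 67.7 and 40.3 CPM in XX gonads, and did not pass by edgeR with all 6 libraries (log2 fold change 0.65, SE 0.20, adjusted p = 0.0547). It passed by DESeq2 (0.68), without XX1 (0.74) and without XX3 (0.45). tra-2 had 118.8, 98.7 and 105 CPM in XO gonads, against 51.5, 107 and 133 CPM in XX gonads, overlapping between groups (log2 fold change 0.15, SE 0.34, adjusted p = 0.758). In all, 6 of 23 tested sex determination genes, out of 24 autosomal members, were higher and 0 lower, and 8 higher and 1 lower without XX1. Few sperm structural genes could be tested. Major sperm protein genes, of which there were 30, had too few counts for any test, and of 53 autosomal spermatogenesis genes 13 were tested and 1 was higher, against 4 without XX1 and 2 without XO1. The 1 gene, spe-15, encodes a myosin of sperm formation and had 26.5 ± 2.60 CPM in XO gonads and 15.3 ± 1.37 CPM in XX gonads (log2 fold change 0.79, SE 0.13, adjusted p = 0.00532). With a trend on exonic length removed, its log2 fold change was 0.47 and it did not pass.

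**Figure D3:**
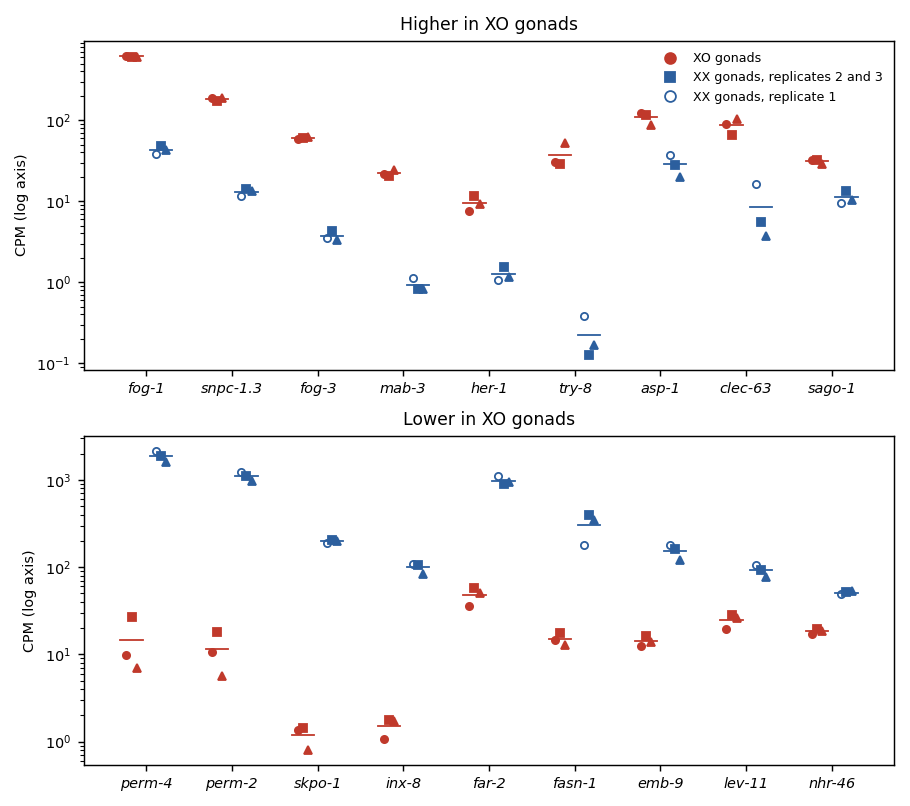
Level of 18 genes in each gonad library, in CPM on log axes, with 9 genes higher in XO gonads above and 9 lower genes below. Circles, squares and triangles are replicates 1, 2 and 3, the open circle is XX1, and bars are group means. XO and XX libraries do not overlap for any of the 18 genes, which holds for every called gene.

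Genes of the eggshell barrier and the female somatic gonad held some of the largest falls. perm-4 and perm-2, which are needed for the permeability barrier around the embryo, were among the most abundant lower genes. perm-4 had 9.82, 26.5 and 6.97 CPM in XO gonads, against 2153, 1857 and 1609 CPM in XX gonads (log2 fold change -7.02, SE 0.65, adjusted p = 6.75e-04, -6.87 without XX1 and -7.81 without XO2). perm-2 had 10.7, 18 and 5.70 CPM in XO gonads, against 1237, 1099 and 969.7 CPM in XX gonads (log2 fold change -6.59, SE 0.50, adjusted p = 3.23e-04, -6.47 without XX1). For both, every XX library lay far above every XO library.

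Most other members of the eggshell list did not pass. All 19 were tested, 3 passed as lower and 0 as higher, and the list median was -0.16 against 0.08 for all autosomal genes. The third, cpg-3, which encodes a chondroitin proteoglycan of the eggshell, had 663 ± 12.9 CPM in XO gonads and 871 ± 112 CPM in XX gonads (log2 fold change -0.39, adjusted p = 0.0459), and its call was lost without any 1 of XO1, XO2, XO3, XX2 and XX3. With XX1 left out, 7 of 19 were lower. Few oocyte and maternal regulators passed: of 45, all tested, 1 was lower and 0 higher, with a median of -0.11. That gene was cyb-3, a B-type cyclin gene, at 1377 ± 42 CPM in XO gonads and 1892 ± 286 CPM in XX gonads (log2 fold change -0.46, adjusted p = 0.0421). Its call was lost without any 1 of XO1, XO2, XO3 and XX2, and 3 members were lower and 1 higher without XX1, against 5 lower without XX3. puf-5, a PUF protein gene of growing oocytes, had 1569 ± 78.9 CPM in XO gonads and 2004 ± 271 CPM in XX gonads and did not pass (adjusted p = 0.0861).

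A minority of the genes of the sheath cells, which enclose the germline, and of the spermatheca were lower in XO gonads. inx-8, which encodes a gap junction innexin through which sheath cells couple to germ cells, had 1.07, 1.75 and 1.74 CPM in XO gonads, against 109, 107 and 84.5 CPM in XX gonads (log2 fold change -6.03, SE 0.24, adjusted p = 3.00e-05, -5.93 without XX1). Its neighbour and near relative inx-9 had 18.9, 21.4 and 28.4 CPM in XO gonads, against 20.2, 19.1 and 17 CPM in XX gonads, and did not pass (log2 fold change 0.29, SE 0.18, adjusted p = 0.284). lim-7, a LIM homeobox gene of the sheath, had 0.487 ± 0.231 CPM in XO gonads and 5.75 ± 0.323 CPM in XX gonads (log2 fold change -3.52, SE 0.33, adjusted p = 4.49e-04). lfe-2, which encodes an inositol trisphosphate kinase acting in spermathecal contraction, had 3.12 ± 0.432 CPM in XO gonads and 8.28 ± 1.53 CPM in XX gonads (log2 fold change -1.40, SE 0.21, adjusted p = 0.00329). Of 34 autosomal sheath and spermatheca genes 31 were tested, 6 were lower and 0 higher, with a median of -0.13, and 10 lower and 3 higher without XX1.

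Some secreted and uterine genes were also lower. skpo-1, a peroxidase gene, had 1.37, 1.44 and 0.804 CPM in XO gonads, against 190.1, 205 and 199 CPM in XX gonads, with little spread within either group (log2 fold change -7.35, SE 0.25, adjusted p = 2.74e-05, -7.37 without XX1). cht-3, a chitinase-like gene, had 1.14, 1.13 and 0.268 CPM in XO gonads, against 56.1, 164 and 201 CPM in XX gonads (log2 fold change -7.37, SE 0.78, adjusted p = 0.00121, -7.73 without XX1). ule-3, a gene for a protein of the uterine lumen, had 0.304, 5.005 and 1.21 CPM in XO gonads, against 253, 193 and 125 CPM in XX gonads (log2 fold change -6.42, SE 0.99, adjusted p = 0.00538). Its log2 fold change was -6.10 without XX1 and -7.95 without XO2. far-2, a fatty acid and retinol binding protein gene, had 36.2, 58.1 and 50.4 CPM in XO gonads, against 1109, 904 and 937 CPM in XX gonads (log2 fold change -4.35, SE 0.22, adjusted p = 4.44e-05), and its relative far-1 had 24.7 ± 3.09 CPM in XO gonads and 107 ± 5.23 CPM in XX gonads (log2 fold change -2.12, SE 0.13, adjusted p = 7.46e-05). ctsa-1.1, a cathepsin A-like gene, had 2.43, 5.13 and 3.48 CPM in XO gonads, against 231, 211 and 219.9 CPM in XX gonads (log2 fold change -5.89, SE 0.30, adjusted p = 4.50e-05). None of these 6 genes overlapped between groups.

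The largest fall of a gene with only a sequence name was that of C44B7.5, with 0.152, 0.876 and 0.134 CPM in XO gonads, against 119.2, 112 and 110.1 CPM in XX gonads (log2 fold change -8.11, SE 0.61, adjusted p = 3.07e-04, -9.56 without XO2). Other such genes among the largest falls were T01D1.4 (0.128 CPM in XO and 18.4 CPM in XX gonads), Y57G11B.5 (0.216 CPM in XO and 26.6 CPM in XX gonads), D1054.10 (0.834 CPM in XO and 68.6 CPM in XX gonads), W09C3.7 (0.357 CPM in XO and 27.3 CPM in XX gonads) and F55B11.3 (0.150 CPM in XO and 12.3 CPM in XX gonads). Their log2 fold changes ran from -7.0 to -6.14 with all 6 libraries and from -8.43 to -7.09 without XO2, the XO gonad with the highest level of each.

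Many contractile genes were lower in XO gonads. Of 42 autosomal genes for contractile filaments and dense bodies, the anchors of muscle filaments, 41 were tested, 18 were lower and 2 higher, and the median log2 fold change of those tested was -0.52. Of the 41, 36 reached the count filter in both groups. The lower count was 22 without XX1 and 10 without XX2. lev-11, the tropomyosin gene, had 19.6, 28.6 and 26.3 CPM in XO gonads, against 105.7, 93.9 and 76.9 CPM in XX gonads (log2 fold change -1.89, SE 0.19, adjusted p = 6.72e-04). tni-4, a troponin I gene, had 0.380, 1.31 and 0.335 CPM in XO gonads, against 23.7, 21 and 23.6 CPM in XX gonads (log2 fold change -5.02, SE 0.46, adjusted p = 4.89e-04, -5.97 without XO2). pat-10, the body wall troponin C gene, had 14.4 ± 3.64 CPM in XO gonads and 41.6 ± 7.53 CPM in XX gonads (log2 fold change -1.53, SE 0.24, adjusted p = 0.00413), and deb-1, the vinculin gene, had 5.31 ± 0.992 CPM in XO gonads and 26.1 ± 8.46 CPM in XX gonads (log2 fold change -2.29, SE 0.29, adjusted p = 0.00181). unc-95, a dense body gene, had 0.754 ± 0.195 CPM in XO gonads and 5.97 ± 0.912 CPM in XX gonads and pat-6, the alpha-parvin gene, 5.53 ± 1.12 CPM in XO gonads and 14.2 ± 2.03 CPM in XX gonads (log2 fold changes -2.98 and -1.36). None of the 6 overlapped between groups. Of the 11 autosomal body muscle markers 10 were tested and 6 were lower in XO gonads, and hlh-1, the transcription factor gene that marks body wall muscle, was at 0 in all gonads. The part of body wall muscle in these results was not tested.

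Basement membrane genes were called in both directions. Those for type IV collagen and its partners fell: emb-9, an alpha chain of type IV collagen, had 12.5, 16.2 and 13.7 CPM in XO gonads, against 180.5, 160.0 and 122.1 CPM in XX gonads (log2 fold change -3.45, SE 0.20, adjusted p = 6.16e-05). The other chain, let-2, which is X-linked, had 19.6 ± 3.28 CPM in XO gonads and 294 ± 52.0 CPM in XX gonads (log2 fold change -3.91, SE 0.20, adjusted p = 4.50e-05). ost-1, which encodes SPARC, had 7.30, 9.45 and 7.98 CPM in XO gonads, against 94.0, 82.6 and 70.0 CPM in XX gonads (log2 fold change -3.32, SE 0.17, adjusted p = 4.50e-05), and cle-1, which encodes collagen XVIII, had 7.17 ± 0.846 CPM in XO gonads and 56.6 ± 8.20 CPM in XX gonads (log2 fold change -2.98, SE 0.16, adjusted p = 5.53e-05). dpy-18, a prolyl 4-hydroxylase gene that modifies collagens, had 9.24 ± 1.91 CPM in XO gonads and 28.7 ± 2.18 CPM in XX gonads (log2 fold change -1.63, SE 0.18, adjusted p = 8.70e-04). mig-6, a papilin gene, went the other way with 49.7, 48.9 and 45.2 CPM in XO gonads, against 23.1, 20.5 and 16.7 CPM in XX gonads (log2 fold change 1.25, SE 0.14, adjusted p = 0.00111), but with a trend on exonic length removed its log2 fold change was 0.53 and it did not pass. The laminin gene lam-1 had 20.3, 19 and 15.7 CPM in XO gonads, against 2.36, 20.2 and 16.7 CPM in XX gonads and did not pass (log2 fold change 0.49, SE 0.69, adjusted p = 0.615), and without XX1, where it was lowest, its log2 fold change was 0.01. Over 35 autosomal matrix genes 32 were tested, with 8 lower and 3 higher. Those shares, 25% and 9.38%, stand against 11.9% and 8.41% of all autosomal genes, so the higher share was near that of all genes. Both groups reached the filter for 28 of the 32. Without XX1 the counts were 12 and 6. Without XX2, they were 4 and 1, without XO2, 4 and 2, and without XO1, 6 and 1.

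The genes that rose the most were nearly silent in XX gonads. try-13, a trypsin-like protease gene, had 39.2, 48.7 and 63 CPM in XO gonads, against 0.380, 0 and 0 CPM in XX gonads (log2 fold change 8.58, SE 0.74, adjusted p = 5.21e-04). Its 5 XX counts were all in XX1, and without that library the ratio was at least 468-fold taking 3 counts over the group as the floor. Without XX2 its log2 fold change was 7.92. try-8, another trypsin-like gene, had 30.4, 28.5 and 52.3 CPM in XO gonads, against 0.380, 0.128 and 0.167 CPM in XX gonads (log2 fold change 7.33, SE 0.46, adjusted p = 8.61e-05, 7.94 without XX1). ins-31, an insulin-like peptide gene, had 24.8, 23.8 and 48.9 CPM in XO gonads, against 0.837, 0.128 and 0 CPM in XX gonads (log2 fold change 6.63, SE 0.83, adjusted p = 0.00237). Without XX1 it had 2 counts over the XX gonads and the ratio was 451 (interval 125 to 3727). Intervals on ratios are 95% counting intervals. No library of one group reached the range of the other for any of the 3.

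K12H6.9 had 2 XX counts in all and a ratio of 518 (interval 143 to 4279.7), at least 234-fold without XX1. M176.10 and F54D12.9 also had 2 XX counts, with ratios of 256 (interval 70.5 to 2118) and 244 (interval 67.1 to 2018), the second at least 110.2-fold without XX1. Without XX2 the log2 fold changes of K12H6.9 and F54D12.9 were 8.15 and 7.07, against 8.76 and 7.68 with all 6 libraries. F26D2.16 averaged 38 ± 11.7 CPM in XO gonads and 0.140 ± 0.123 CPM in XX gonads (log2 fold change 7.94, SE 0.53, adjusted p = 1.37e-04). C05B5.11, K12H6.4, K11D12.6 and F26D10.13 had log2 fold changes of 6.72, 7.07, 7.04 and 7.07. Without XX1 these 4 had 3, 1, 1 and 0 XX counts, and without XX2 the last 3 had log2 fold changes of 6.42, 6.39 and 6.41. tba-7, an alpha tubulin gene, had 2 XX counts and a ratio of 139 (interval 38 to 1149), the metalloprotease gene nas-19 had 1 and 171 (interval 30.4 to 6809), and the C-type lectin gene clec-183 had 1 and 157 (interval 27.7 to 6223). Without XX1 the last pair had 0 XX counts and ratios of at least 38.8-fold and 35.4-fold. The 12 genes with the largest rises were much scarcer in XO gonads than in XO whole worms, with gonad levels between 0.0520 and 0.176 of the whole worm level.

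Digestive and defence proteins of the kind made in the intestine were also higher in XO gonads. asp-1, an aspartyl protease gene, had 122.3, 116.3 and 87.5 CPM in XO gonads, against 37.5, 28.3 and 20.1 CPM in XX gonads (log2 fold change 1.92, SE 0.26, adjusted p = 0.00226, 2.18 without XX1). Its relatives asp-5 (27 CPM in XO and 6.81 CPM in XX gonads) and asp-2 (15.1 CPM in XO and 4.48 CPM in XX gonads) and the cathepsin B-like gene cpr-9 (20.8 CPM in XO and 6.68 CPM in XX gonads) passed in the same direction (log2 fold changes 1.98, 1.75 and 1.64). The lysozyme genes lys-1 (14.1 CPM in XO and 3.61 CPM in XX gonads) and lys-8 (9.22 CPM in XO and 1.88 CPM in XX gonads) had log2 fold changes of 1.96 and 2.29, and lys-2 (2.13 CPM in XO and 0.638 CPM in XX gonads) one of 1.73. clec-63, a C-type lectin gene, had 90.2, 65.4 and 103 CPM in XO gonads, against 16.3, 5.61 and 3.67 CPM in XX gonads (log2 fold change 3.34, SE 0.60, adjusted p = 0.00998, 4.21 without XX1). spp-17, a saposin-like gene, had 15 ± 3.15 CPM in XO gonads and 4.6 ± 1.91 CPM in XX gonads (log2 fold change 1.71, SE 0.33, adjusted p = 0.00994), and pmt-1, a phosphoethanolamine methyltransferase gene of phosphatidylcholine synthesis, had 8.34 ± 1.25 CPM in XO gonads and 3.17 ± 0.462 CPM in XX gonads (log2 fold change 1.39, SE 0.20, adjusted p = 0.00269).

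Of the aspartyl and cysteine protease genes 14 of 25 were tested and 8 were higher, 12 without XX1. Of 237 C-type lectin genes 21 were tested, with 11 higher and 3 lower. Without XX1 there were 14 higher and 4 lower of 25 tested, and 6 higher and 1 lower without XX2. Members that reached the count filter through 1 group alone could hardly fail to differ, and 10 of the 21 lectin genes reached it in both. Among the 17 autosomal intestine markers, 14 were tested, 8 were higher and 1 lower, with fat-7 at 0 in all gonads. The higher count was 5 without XO1, XO2 or XX2. The marker that fell was vit-6, a yolk protein gene of the intestine, with 35.0, 23.6 and 9.45 CPM in XO gonads, against 115.96, 225 and 197 CPM in XX gonads (log2 fold change -2.98, SE 0.54, adjusted p = 0.0101). XX1 was the highest XX library for asp-1, clec-63, lys-1 and lys-8. Of all 629 higher genes, 214 had an XO gonad level below 0.1 of the XO whole worm level, a larger share than the 765 of the 7480 tested genes. The median ratio of these levels was 0.61 for the higher genes and 1.40 for the tested genes. The part of RNA from outside the gonad in these results was not tested.

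Cuticle collagens included a pair that passed. col-119 had 81.6, 89 and 82.2 CPM in XO gonads, against 55.8, 43.0 and 24.8 CPM in XX gonads (log2 fold change 1.03, SE 0.29, adjusted p = 0.0413) and col-140 75.3, 83.7 and 71.8 CPM in XO gonads, against 50.9, 39.5 and 22.8 CPM in XX gonads (log2 fold change 1.03, SE 0.29, adjusted p = 0.0419). Both calls were lost without any 1 of XO1, XO2, XO3 and XX2, and without XX1 the log2 fold changes were 1.33 and 1.32. Cuticle and hypodermis markers summed to more in XO gonads, as given above, and of 9 tested 4 were higher and 1 lower. Their part was not tested.

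Germline functions were measured nearly in full, and most of their genes did not pass. Of 33 meiotic axis and synapsis genes, all tested, 4 were higher and 1 lower, with a median of 0.31. htp-3, a HORMA-domain protein gene of the chromosome axis, had 173, 172 and 174 CPM in XO gonads, against 128, 126 and 125 CPM in XX gonads (log2 fold change 0.45, SE 0.08, adjusted p = 0.00669, 0.48 without XX1), and with the trend on exonic length removed it did not pass. The cohesin kleisin genes rec-8 and coh-3 had 226 ± 1.62 CPM in XO gonads and 159 ± 27 CPM in XX gonads, and 53.9 ± 2.50 CPM in XO gonads and 33.7 ± 6.41 CPM in XX gonads, with log2 fold changes of 0.50 and 0.68. him-3, another HORMA-domain gene, had 109 ± 3.84 CPM in XO gonads and 87.7 ± 4.39 CPM in XX gonads (log2 fold change 0.31, adjusted p = 0.0482). The calls of rec-8, coh-3 and him-3 were each lost without any 1 of XO1, XO2 and XO3. Among 39 genes for meiotic breaks and crossovers, all tested, 4 were higher and 0 lower, with a median of 0.48 and 0 values below 0, against 4 below 0 without XX1. One was him-5, whose product promotes X chromosome breaks, with 24.5 ± 1.44 CPM in XO gonads and 16.7 ± 1.82 CPM in XX gonads (log2 fold change 0.55, adjusted p = 0.0201), a call lost without XO2, XO3 or XX3.

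The meiotic counts moved with single libraries. Without XX1, 14 axis and synapsis genes and 13 break and crossover genes were higher and the medians were 0.23 and 0.24. Leaving out any XO gonad library left 1 higher axis gene, and leaving out XO1, XO2 and XO3 in turn left 1, 0 and 0 higher break genes. Against the 8.41% of all autosomal genes that were higher, and the 20.4% without XX1, the called shares were 12.1% and 42.4% of the axis list and 10.3% and 33.3% of the break list.

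Small RNA and P granule genes, all 65 tested, had 5 higher and 1 lower with a median of 0.23, and 21 higher and 2 lower without XX1. The shares of 7.69% and 1.54% were below the 8.41% and 11.9% of all autosomal genes, so the higher genes do not set the list apart. Without XX1 the shares were 32.3% and 3.08%, against 20.4% and 15.8%. Without any 1 of XO1, XO2, XO3 and XX2, 2 or 3 were higher. sago-1, a worm-specific Argonaute gene of secondary small interfering RNAs, had 32, 32.5 and 29.1 CPM in XO gonads, against 9.51, 13.5 and 10.4 CPM in XX gonads (log2 fold change 1.48, SE 0.16, adjusted p = 8.64e-04, 1.39 without XX1). ppw-2, another such Argonaute gene, had 291, 312 and 289 CPM in XO gonads, against 218, 217 and 189 CPM in XX gonads (log2 fold change 0.52, SE 0.10, adjusted p = 0.00905), though with a trend on exonic length removed its log2 fold change was 0.24 and it did not pass. prde-1, needed for piRNA precursors, had 49.5, 51.0 and 48.3 CPM in XO gonads, against 14, 27.4 and 29.9 CPM in XX gonads (log2 fold change 1.06, SE 0.28, adjusted p = 0.0344), a call lost without any 1 of XO1, XO2, XO3 and XX2. nyn-1, which encodes a nuclease of RNA silencing, had 88.6 ± 1.77 CPM in XO gonads and 55.8 ± 8.03 CPM in XX gonads (log2 fold change 0.67, SE 0.13, adjusted p = 0.0105), and its call was lost without XO3. The only lower gene was erh-2, whose product acts in piRNA trimming, with 39 ± 2.23 CPM in XO gonads and 52.1 ± 5.40 CPM in XX gonads (log2 fold change -0.42, adjusted p = 0.0377). It was lost without any 1 of XO1, XO2, XO3, XX2 and XX3.

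Proteasome genes differed by small amounts in 1 direction. All 32 were tested, all 32 had a negative log2 fold change, 13 passed as lower and the median was -0.34, against 0.08 over all autosomal genes. pbs-5, a catalytic beta subunit gene, had 242, 225 and 227 CPM in XO gonads, against 413, 329.9 and 315 CPM in XX gonads (log2 fold change -0.61, SE 0.13, adjusted p = 0.0136), and pas-2, an alpha subunit gene, had 248, 234.6 and 224 CPM in XO gonads, against 368, 332 and 305 CPM in XX gonads (log2 fold change -0.51, SE 0.10, adjusted p = 0.0126). Both calls were lost without XO2 or XO3. The lower count was 23 without XX1, 18 without XX3, 2 without XO1 or XX2, and 0 without XO2 or XO3. With XX1 left out the median was -0.26 and 31 of 32 were negative.

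Genes of the endoplasmic reticulum had 8 lower and 0 higher of 42, all tested, with a median of -0.10. They included sec-61.A, the channel through which secreted proteins enter, at 755, 733 and 681 CPM in XO gonads, against 1334, 1133 and 958 CPM in XX gonads (log2 fold change -0.66, SE 0.14, adjusted p = 0.0146), and trap-1 and trap-4, subunits of the translocon-associated complex, at 268 ± 11.3 CPM in XO gonads and 406 ± 39.3 CPM in XX gonads and at 258 ± 19.2 CPM in XO gonads and 410.0 ± 48.7 CPM in XX gonads (log2 fold changes -0.60 and -0.67). dnj-27, a disulphide-handling chaperone gene, had 15.1 ± 2.31 CPM in XO gonads and 32.8 ± 0.863 CPM in XX gonads (log2 fold change -1.12, SE 0.14, adjusted p = 0.00168). The sec-61.A call was lost without XO2, XO3 or XX2, and the list had 12 lower genes without XX1 and 3 or 4 without any 1 of XO1, XO2, XO3 and XX2. Of 78 tested cell cycle and replication genes, out of 79, 4 were lower and 0 higher. Without XX1 the counts were 8 and 6, and without any 1 of XO1, XO2, XO3 and XX2 there was 1 lower gene. cdc-25.2, a phosphatase gene that activates cyclin-dependent kinase in oocytes, had 66.5, 69.2 and 60.7 CPM in XO gonads, against 118, 109.8 and 93.4 CPM in XX gonads (log2 fold change -0.71, SE 0.12, adjusted p = 0.00684). mcm-2, of the replicative helicase, and pcn-1, the sliding clamp, had log2 fold changes of -0.53 and -0.44, both lost without any 1 of XO1, XO2, XO3 and XX2.

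Few genes of the translation machinery passed. By edgeR's quasi-likelihood test 0 of 75 tested cytosolic ribosomal protein genes, out of 77, passed in either direction, 0 had an unadjusted p under 0.05, 0 passed by DESeq2, and 1 was higher without XX1. Of 64 tested mitochondrial ribosomal protein genes, out of 65, 2 were higher, and 16 were higher without XX1. mrps-22 was one, with 141 ± 7.32 CPM in XO gonads and 104.4 ± 5.20 CPM in XX gonads (log2 fold change 0.44, SE 0.09, adjusted p = 0.0156), a call lost without XO1, XO2 or XX2. Among 31 tRNA synthetase genes, all tested, 1 was higher, 9 without XX1 and 0 without any 1 of XO1, XO2, XO3 and XX2. Of 58 chromatin regulators, all tested, 2 were lower and 0 higher, with 3 lower and 10 higher without XX1 and 0 lower without any 1 of XO1, XO2, XO3 and XX2. pro-3, which encodes a ribosome assembly factor needed in the somatic gonad for a normal germline, had 78.1, 77.8 and 63.4 CPM in XO gonads, against 23.2, 43.7 and 40.2 CPM in XX gonads (log2 fold change 1.03, SE 0.25, adjusted p = 0.0244), a call lost without XO1 or XO2. ife-5, an isoform of the cap-binding factor eIF4E, had 30.4 ± 1.93 CPM in XO gonads and 48.9 ± 6.56 CPM in XX gonads (log2 fold change -0.69, SE 0.13, adjusted p = 0.00944).

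**Figure D4:**
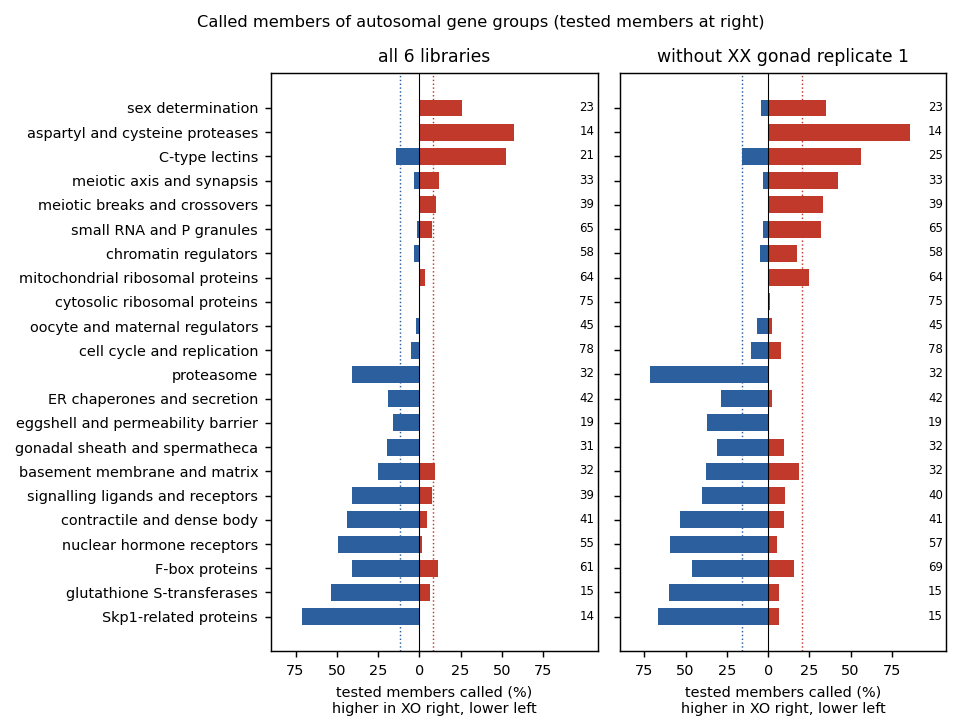
Share of tested autosomal members of 22 gene groups that were called, in percent, with all 6 libraries and without XX1. Bars to the right are higher and bars to the left lower in XO gonads, the number tested is at the right edge, and dotted lines mark the shares of all autosomal genes tested (8.41% and 11.9%, and 20.4% and 15.8% without XX1). Proteasome, contractile, nuclear hormone receptor and Skp1-related groups extend past the line for lower genes in both fits.

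Transcription factors and signalling genes that passed were mostly lower. Of 245 autosomal nuclear hormone receptor genes 55 were tested, 27 were lower and 1 higher, and 34 and 3 without XX1. The filter was reached in both groups by 38 of the 55. nhr-46 had 17.2, 19.6 and 18.6 CPM in XO gonads, against 48.8, 51.3 and 53.4 CPM in XX gonads (log2 fold change -1.47, SE 0.10, adjusted p = 1.37e-04), nhr-4 had 1.48 ± 0.420 CPM in XO gonads and 7.35 ± 1.07 CPM in XX gonads (log2 fold change -2.31, SE 0.26, adjusted p = 9.61e-04) and nhr-76 had 0.463 ± 0.249 CPM in XO gonads and 4.49 ± 0.415 CPM in XX gonads (log2 fold change -3.27, SE 0.38, adjusted p = 0.00121). Of 45 autosomal ceh homeobox genes 16 were tested, 7 were lower and 2 higher, with 1 higher without any 1 of XO1, XO2, XO3, XX2 and XX3. ceh-83 had 11.3, 13.9 and 13.5 CPM in XO gonads, against 29.4, 34.4 and 30.1 CPM in XX gonads (log2 fold change -1.28, SE 0.13, adjusted p = 7.29e-04) and ceh-91, a higher one, had 79.7, 74.5 and 77.6 CPM in XO gonads, against 35.5, 47.1 and 46.6 CPM in XX gonads (log2 fold change 0.84, SE 0.14, adjusted p = 0.00492). ceh-32, a Six-type homeobox gene, had 0.240 ± 0.152 CPM in XO gonads and 6.62 ± 1.88 CPM in XX gonads (log2 fold change -4.69, SE 0.46, adjusted p = 5.60e-04). None of the 3 overlapped between groups.

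Among ligands, receptors and a factor of the developing uterus, the 6 genes named here were lower in XO gonads. lag-2, the ligand by which the distal tip cell keeps germline stem cells dividing, had 0.304, 0.563 and 0.335 CPM in XO gonads, against 1.98, 1.91 and 1.75 CPM in XX gonads (log2 fold change -2.19, SE 0.30, adjusted p = 0.0025). dsl-2, another DSL-type ligand gene, had 1.45, 1.06 and 1.94 CPM in XO gonads, against 10.8, 11.22 and 8.33 CPM in XX gonads (log2 fold change -2.77, SE 0.26, adjusted p = 5.09e-04). dbl-1, a BMP-like ligand gene, had 0.271 ± 0.0564 CPM in XO gonads and 3.26 ± 0.656 CPM in XX gonads (log2 fold change -3.54, SE 0.31, adjusted p = 3.48e-04), and lin-11, a LIM homeobox gene of the uterus and vulva, had 0.182 ± 0.0759 CPM in XO gonads and 1.39 ± 0.296 CPM in XX gonads (log2 fold change -2.87, SE 0.40, adjusted p = 0.00254). unc-5, the netrin receptor gene that guides distal tip cells, had 2.21, 2.38 and 1.81 CPM in XO gonads, against 8.45, 7.59 and 7.997 CPM in XX gonads (log2 fold change -1.90, SE 0.17, adjusted p = 4.19e-04), and the Patched-like gene ptc-3 had 2.74 ± 0.426 CPM in XO gonads and 8.42 ± 0.391 CPM in XX gonads (log2 fold change -1.62, SE 0.17, adjusted p = 8.49e-04). No XO library reached the XX range for any of the 6. In the list of ligands and receptors 39 of 46 autosomal genes were tested, with 16 lower, 3 higher and 20 not passing. Of the 39, 31 reached the filter in both groups. The lower count was 10 or 11 without any 1 of XO1, XO2, XO3 and XX2, and 1 was higher without XO1 or XX2.

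In ubiquitin ligases of the SCF type a Skp1-like protein joins a cullin to an F-box protein. Of 17 autosomal Skp1-related genes 14 were tested, 10 were lower and 0 higher, and leaving out any 1 library gave 8 to 10. skr-7 had 13.5, 16.5 and 16.8 CPM in XO gonads, against 43.4, 44.8 and 41.4 CPM in XX gonads (log2 fold change -1.47, SE 0.12, adjusted p = 2.79e-04), skr-10 had 1.37, 1.81 and 1.61 CPM in XO gonads, against 10.7, 12.8 and 12 CPM in XX gonads (log2 fold change -2.88, SE 0.18, adjusted p = 8.41e-05) and skr-16 had 2.22 ± 0.463 CPM in XO gonads and 11 ± 0.347 CPM in XX gonads (log2 fold change -2.30, SE 0.19, adjusted p = 2.70e-04). skr-1, the most abundant of those named, had 186, 192 and 195.6 CPM in XO gonads, against 274, 254 and 244 CPM in XX gonads (log2 fold change -0.43, adjusted p = 0.0129) and lost its call without any 1 of XO1, XO2 and XO3. Several skr genes are near copies of each other, and reads set aside or shared between them could move single values. Of 305 F-box genes of the fbxa, fbxb and fbxc families 61 were tested, with 25 lower and 7 higher, and 45 of the 61 reached the filter in both groups. The higher count was 11 without XX1 and 2 or 3 without any 1 of XO1, XO2, XO3 and XX2. fbxb-97 had 2.14 ± 0.0713 CPM in XO gonads and 11.7 ± 2.66 CPM in XX gonads (log2 fold change -2.44, SE 0.21, adjusted p = 3.42e-04). Of 26 autosomal genes for cullins and ubiquitin-conjugating enzymes 23 were tested, 3 were lower and 0 higher, a share of 13% against 11.9% of all genes, with 6 lower and 2 higher without XX1.

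Lipid and energy metabolism held both large and small falls. fasn-1, the fatty acid synthase gene, had 14.5, 17.8 and 12.7 CPM in XO gonads, against 179, 393 and 349 CPM in XX gonads (log2 fold change -4.36, SE 0.36, adjusted p = 3.75e-04, -4.61 without XX1). acs-1, an acyl-CoA synthetase gene of branched-chain fatty acids, had 2.05, 2.31 and 1.74 CPM in XO gonads, against 33.7, 45.5 and 36.7 CPM in XX gonads (log2 fold change -4.24, SE 0.19, adjusted p = 3.38e-05). sbp-1, which encodes the SREBP factor that activates lipid synthesis genes, had 8.67, 6.88 and 6.97 CPM in XO gonads, against 18.4, 19.5 and 16.7 CPM in XX gonads (log2 fold change -1.28, SE 0.15, adjusted p = 0.00119). lbp-6, a lipid binding protein gene, had 9.16 ± 1.51 CPM in XO gonads and 41.4 ± 4.65 CPM in XX gonads (log2 fold change -2.17, SE 0.17, adjusted p = 2.04e-04), and acdh-9, an acyl-CoA dehydrogenase gene, had 2.1 ± 0.249 CPM in XO gonads and 11.3 ± 0.987 CPM in XX gonads (log2 fold change -2.43, SE 0.17, adjusted p = 1.34e-04). XO and XX libraries did not overlap for any of the 5. In the fatty acid and lipid list 32 of 39 autosomal genes were tested, 5 were lower and 5 higher, and 1 or 2 were higher without any 1 of XO1, XO2, XO3 and XX2.

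Glycolysis genes had smaller fold changes. gpi-1, phosphoglucose isomerase, had 177, 169.7 and 173 CPM in XO gonads, against 259, 270.2 and 238 CPM in XX gonads (log2 fold change -0.56, SE 0.09, adjusted p = 0.00443). pyk-1, pyruvate kinase, had 433, 452 and 425 CPM in XO gonads, against 579.8, 598 and 573 CPM in XX gonads (log2 fold change -0.42, SE 0.08, adjusted p = 0.00951), and ldh-1, lactate dehydrogenase, had 38.7, 44 and 42.3 CPM in XO gonads, against 81.6, 71 and 70.4 CPM in XX gonads (log2 fold change -0.84, SE 0.11, adjusted p = 0.00204). The groups did not overlap for any of the 3, though they lay closer than for the lipid genes. Of 19 autosomal members 17 were tested, 4 were lower and 1 higher, and 6 were lower without XX1 or XX3. The glutathione S-transferase gene gst-7 had 123.6 ± 3.59 CPM in XO gonads and 183 ± 18.3 CPM in XX gonads (log2 fold change -0.57, SE 0.10, adjusted p = 0.00844), one of 8 lower genes of 15 tested and 41 in all, with 5 lower without XO1. Only 8 of those 15 reached the filter in both groups. Transporter genes included nac-3, a dicarboxylate carrier, at 0.480 ± 0.0483 CPM in XO gonads and 7.28 ± 1.1 CPM in XX gonads (log2 fold change -3.91, SE 0.23, adjusted p = 7.01e-05), and slc-17.7 at 1.5 ± 0.458 CPM in XO gonads and 20.2 ± 3.22 CPM in XX gonads (log2 fold change -3.73, SE 0.27, adjusted p = 1.47e-04). spp-10, the prosaposin gene, had 3.04, 2.69 and 3.35 CPM in XO gonads, against 28.8, 24.7 and 27.8 CPM in XX gonads (log2 fold change -3.16, SE 0.15, adjusted p = 3.61e-05), against the rise of spp-17 above.

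Some autosomal genes have an X-linked near relative. In 12 of the 13 such pairs listed the X-linked member was lower in XO gonads, as were 777 of all 955 X-linked genes tested. The exception, the laminin gene lam-2, was lower without XX1 (log2 fold change -2.09). In the 12 pairs the autosomal member did not pass in 10 and was lower in 2. Most tested autosomal genes likewise did not pass, with 8.41% higher and 11.9% lower, so these counts do not set the autosomal members apart. alg-2, a microRNA Argonaute gene on chromosome II, had 112 ± 3.88 CPM in XO gonads and 134 ± 24.8 CPM in XX gonads, and X-linked alg-1 had 6.29 ± 1.1 CPM in XO gonads and 62.2 ± 5.74 CPM in XX gonads (log2 fold changes -0.26 and -3.30). par-5, a 14-3-3 gene on chromosome IV, had 1339 ± 42.7 CPM in XO gonads and 1559 ± 149.8 CPM in XX gonads, and X-linked ftt-2 had 62.7 ± 3.68 CPM in XO gonads and 364 ± 12.7 CPM in XX gonads (-0.22 and -2.54). hpl-2 on chromosome III, a heterochromatin protein 1 gene, had 112 ± 5.95 CPM in XO gonads and 121.8 ± 4.29 CPM in XX gonads, and X-linked hpl-1 had 0.209 ± 0.0871 CPM in XO gonads and 7.05 ± 0.732 CPM in XX gonads (-0.12 and -5.04). The ribosomal protein gene rpl-11.1 on chromosome V had 2069.9 ± 201 CPM in XO gonads and 2143 ± 333 CPM in XX gonads and X-linked rpl-11.2 23.4 ± 3.05 CPM in XO gonads and 113.1 ± 17.4 CPM in XX gonads (-0.05 and -2.27). The adjusted p of the 4 autosomal members ran from 0.169 to 0.805, and a p that misses the threshold does not show that they were equal. The lower autosomal members were emb-9, lower together with let-2, and the troponin I gene tni-3.

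Called genes were in places neighbours. Runs of at least 3 adjacent autosomal genes all called in 1 direction numbered 6 for higher genes, with 21 genes, and 9 for lower genes, with 29. The longest held 5 higher genes on chromosome II, C16C8.19, C16C8.7, C16C8.8, C16C8.9 and C16C8.10. C16C8.9, the most abundant of them, had 8.67, 10.6 and 17.6 CPM in XO gonads, against 0.0761, 0 and 0 CPM in XX gonads, a ratio of 506 (interval 90.4 to 20024) and of at least 114-fold without XX1. nspf-1, nspf-2 and nspf-3, nematode-specific peptide genes also on chromosome II, formed another. nspf-3 had 9.51, 11.3 and 13.9 CPM in XO gonads, against 0.304, 0 and 0.0833 CPM in XX gonads (log2 fold change 6.45, SE 0.58, adjusted p = 3.95e-04). Without XX1 it had 1 XX count and a ratio of 322 (interval 57.6 to 12759), and without XX2 its log2 fold change was 5.80. The neighbours nspf-1 and nspf-2 had 0 XX counts, with ratios of at least 19.2-fold and at least 59-fold. On chromosome IV skr-13, skr-9, skr-8 and skr-12 were all lower, with log2 fold changes of -1.60, -2.90, -2.48 and -1.09. On chromosome II gst-20, gst-24 and gst-15 were lower (-1.64, -2.37 and -1.83), though gst-15 lost its call without XO1, XO3, XX2 or XX3 and had a log2 fold change of -2.42 without XO2. Neighbours in such runs are often near copies of each other, whose reads may be shared.

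Whole worms gave the same contrast in libraries that share none with the gonads. There 3027 of 10372 tested autosomal genes were higher (29.2%) and 2214 lower (21.3%) in XO. Of the 629 genes higher in gonads, 363 were higher in whole worms, 17 lower, 239 did not pass and 10 were not tested. Of the 892 lower genes, 460 were lower, 159 higher, 265 did not pass and 8 were not tested. The same direction was thus called for 823 of 1521 genes, and for 522 to 1398 under the other settings tried. All 176 genes called in opposite directions passed the test of the difference between tissues, a test fitted on all 12 libraries and passed by 1332 of 10586 autosomal genes (12.6%). Genes already called in opposite directions in those same libraries could hardly fail it, so this adds no support to their calls. Libraries of the tissues differ in cell makeup, and a whole worm contains its gonad.

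The genes snpc-1.3, try-8, skpo-1 and inx-8 were called the same way in both tissues, with no difference between tissues that passed. snpc-1.3 had log2 fold changes of 3.81 in gonads and 3.42 in whole worms, try-8 7.33 and 9.88, skpo-1 -7.35 and -6.39, and inx-8 -6.03 and -5.31 (adjusted p of the difference = 0.242, 0.222, 0.136 and 0.0964). Of the 6 contractile genes named, 4 went opposite ways in the tissues. lev-11 had 1551 ± 85.0 CPM in XO whole worms and 1005 ± 98.1 CPM in XX whole worms (log2 fold change 0.63), against -1.89 in gonads, and unc-95, deb-1 and pat-10 had 0.38, 0.62 and 0.77 in whole worms. The difference between tissues passed for each of these 4, with adjusted p from 1.55e-06 to 2.07e-05. The other two were tni-4, lower in XO whole worms as well (log2 fold change -0.54, adjusted p = 7.71e-04), and pat-6, which did not pass there (0.24, adjusted p = 0.0723). Their gonad fold changes differed from those in whole worms too (adjusted p = 3.37e-06 and 1.35e-04). Signalling and metabolic genes with opposite calls were unc-5 (0.49 in whole worms), ptc-3 (0.96), nhr-97 (0.54), gst-20 (1.19), spp-10 (0.63), nac-3 (0.59), acdh-9 (0.41) and ldh-1 (0.30), all higher in XO whole worms and lower in XO gonads. lys-2 was the reverse, at -0.82 in whole worms.

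Other gonad falls were smaller in the whole body. far-2 had 2515 ± 232 CPM in XO whole worms and 3128 ± 156 CPM in XX whole worms (log2 fold change -0.31), against -4.35 in gonads. emb-9 and ost-1 had -0.45 and -0.15 in whole worms, the second not passing (adjusted p = 0.0727), against -3.45 and -3.32 in gonads. The XO gonad level was 0.0192, 0.0284 and 0.0370 of the XO whole worm level for the 3 genes, and the XX gonad level 0.314, 0.226 and 0.332 of the XX whole worm level.

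**Figure D5:**
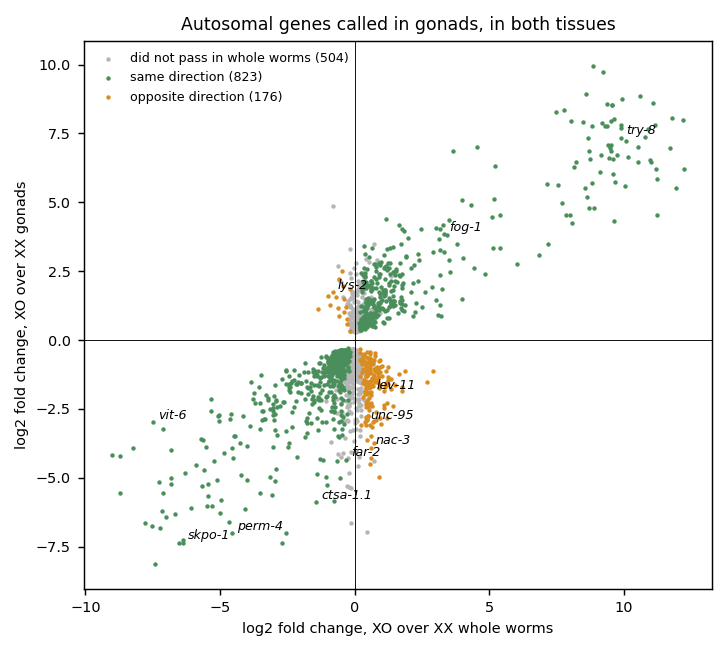
Log2 fold change of XO over XX in gonads (vertical) against whole worms (horizontal) for autosomal genes called in gonads and tested in whole worms. Of these, 823 were called in the same direction, 176 in opposite directions and 504 did not pass in whole worms. The contractile genes lev-11 and unc-95 lie below 0 for gonads and above 0 for whole worms.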

How the data were processed

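RNA-seq of 6 dissected gonad libraries (XO gonads and XX gonads, n = 3 each) was analysed, with 6 whole worm libraries of the same design for 1 comparison. The authors deposited raw read counts per gene, 1 table per library. Per the submitters' processing notes the tools used included HTSeq, TopHat2 2.0.12, Cufflinks 2.2.0, CASAVA 1.8 and SAMtools 1.2. The genome build, annotation and strand setting behind the counts are not given in the sources used here. Summary rows of the counter were left out of library sizes and tests. In gonad libraries reads without a gene made up 1.9% to 3.8%, ambiguous reads 0.961% to 1.09% and reads that did not align uniquely 4.99% to 8.8% of all reads in the tables. Of 20389 gene rows, 19899 matched 1 gene of the WBcel235 annotation by sequence name, the source of each symbol, chromosome and exonic length. The 490 others are not among the autosomal genes. Of the symbols in the gene lists, 25 were unmatched.

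The counts were fitted with edgeR 4.0.16 in R 4.3.3 (filterByExpr with a minimum count of 10, TMM scaling, quasi-likelihood F test, Benjamini-Hochberg adjustment over all genes tested on all chromosomes). Only the 6 gonad libraries entered the main fit, whole worms were fitted apart, and the difference between tissues was an interaction term in 1 fit of all 12. Positive log2 fold changes mean higher in XO. CPM values use TMM-scaled library sizes, errors beside means are SD, and the SE of a log2 fold change was taken from the F statistic. Ratios over few counts use a floor of 3 counts over the group and 95% intervals that cover counting error only. The scripts were tested on simulated counts.

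Members and gene lists were chosen with earlier results of these data known. The genes named are those on chromosomes I to V that had the 12 largest changes per direction, or were the 8 most abundant per direction, among genes that passed with and without XX1, changed at least 2-fold, did not overlap and reached 10 CPM. Also named are up to 6 members of each list by adjusted p, the sex determination genes, markers, pairs and runs of at least 3 neighbours. Lists are described by counts and medians and were not tested as sets. Alternatives were DESeq2 1.42.0, RLE scaling, TMM on autosomal genes, no count filter, library quality weights (limma 3.58.1), removal of a trend on exonic length, the replicate number as a block, and leaving out each library.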

Additional observations from a re-analysis of the deposited data

Results flagged for a closer look

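The XO over XX contrast differed between gonads and whole worms by an interaction test on all 12 libraries (edgeR's quasi-likelihood test, Benjamini-Hochberg adjustment) for 176 autosomal genes called in opposite directions. Those genes were picked by opposite calls in the same libraries and could hardly fail that test. The values that follow are the interaction term of that fit, an estimate of the log2 fold change in gonads minus that in whole worms. The fit was scaled over all 12 libraries, so a value can depart slightly from the difference of the separately fitted log2 fold changes. A negative value means that XO was lower, relative to XX, in gonads than in whole worms. Among genes called in opposite directions, the difference was -2.63 for lev-11, -3.47 for unc-95, -3.02 for deb-1 and -2.41 for pat-10, all muscle-type contractile genes. It was -2.51 for unc-5, -2.69 for ptc-3, -2.23 for nhr-97, -2.94 for gst-20, -3.9 for spp-10, -2.95 for acdh-9, -4.62 for nac-3 and -1.24 for ldh-1, and 2.44 for lys-2.

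Genes lower in XO gonads whose change in whole worms was smaller or did not pass included the contractile genes tni-4 (-4.58) and pat-6 (-1.71), perm-4 (-2.57), perm-2 (-2.03), far-2 (-4.15), fasn-1 (-3.28), ctsa-1.1 (-4.55), emb-9 (-3.1) and ost-1 (-3.27). Genes higher in XO gonads by more than in XO whole worms were fog-1 (0.41), fog-3 (0.73) and asp-1 (1.46).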

How the results depend on the processing

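Counts of called genes and the fitted fold changes of genes nearly at 0 in a group both moved. The log2 fold change of try-13 was 8.58 with all 6 libraries and 12.5 without XX1, and that of F26D10.13 7.07 and 10.99, where the fits without XX1 are against XX counts of 0 and depend on the prior count. Library quality weights, which gave XX1 a weight of 0.102 and the other gonad libraries 0.812 to 2.81, gave 1483 higher and 1457 lower autosomal genes, 1398 called the same way in whole worms and 304 called in opposite directions with a difference between tissues. Leaving out 1 library gave 330 to 1576 higher, 590 to 1226 lower, 572 to 1213 called the same way and 110 to 255 in opposite directions. RLE scaling, TMM on autosomal genes, no count filter, DESeq2 and removal of the exonic length trend gave 534 to 798 higher and 875 to 1090 lower genes, within 1.5 times the main counts. The median log2 fold change of autosomal genes was 0.08, and 0.19 with no filter.

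The replicate number as a block gave 302 higher and 548 lower genes, 522 called the same way in whole worms and 107 in opposite directions. Deviations of same-numbered XO and XX gonads correlated at -0.511, -0.261 and -0.181 for numbers 1, 2 and 3, and no library correlated best with its own number. Deviations within a group of 3 constrain each other and XX1 stood apart, so these values cannot decide whether the numbers pair the samples. With the block 28 of 160 named genes lost their call, though some of the 160, such as tra-2, had no call to lose.

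No called gene named here changed direction under any alternative run. Calls ended for cpg-3 under RLE scaling, for rec-8, him-3 and ekl-1 with TMM on autosomal genes, for spe-15, mig-6, htp-3 and ppw-2 with the length trend removed, and for clec-63, col-119, col-140, C17F4.7, him-3, ekl-1, erh-2 and mrps-22 with no filter. Leaving out 1 XO gonad library ended 19 to 24 calls, leaving out XX2 19 and XX3 10, and leaving out XX1 ended none. The last result was partly fixed, because genes named for the largest changes or highest levels had to pass without XX1. Among all called autosomal genes, 610 of 629 higher and 875 of 892 lower genes kept their call without XX1. The cause of the lost calls was not tested. With 3 libraries a group, of which 1 stands apart, a change under 2-fold that did not pass may lie below what these libraries can show, and 9689 autosomal rows had too few counts for a test.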

Other observations

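Histone genes divided. Of 75 autosomal histone genes 31 were tested, 8 were higher and 3 lower in XO gonads, and the median log2 fold change of those tested was 0.36. The shares were 25.8% and 9.68%, against 8.41% and 11.9% of all autosomal genes, and 24 of the 31 reached the filter in both groups. With XX1 left out 13 were higher, with any 1 of the other libraries left out 4 or 5 were higher, and 1 was lower with XO1, XO2, XO3 or XX2 left out. Many histone genes are near copies whose reads may be set aside or shared, and most histone transcripts carry no poly(A) tail, so these values describe only what the libraries captured.

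Most markers of germ cells and neurons were not called, as held for most tested genes. Of 12 germline markers, all tested, 3 were higher and 0 lower with a median of -0.03. The higher share was 25%, against 8.41% of all tested autosomal genes, and without XX1 it was 33.3%, against 20.4%. The higher count was 1 without XO1, XO2, XO3 or XX3. Autosomal neuron markers summed to 165 to 185 CPM in XO gonads and 199.7 to 243 CPM in XX gonads. Of 12 tested 2 were higher and 1 lower, shares of 16.7% and 8.33%, against 8.41% and 11.9% of all tested autosomal genes. Leaving out any 1 library other than XX1 left 1 higher neuron marker.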
